A study of Homo sapiens with 14 samples.

Results

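The genes described here are 9 members of the set that p53 is known to activate: CDKN1A, GADD45A, MDM2, FAS, TNFRSF10B, BAX, XPC, RRM2B and ZMAT3. They were taken by gene name from both deposited expression tables, in which all 9 were found among 63677 listed genes and all 9 were tested among 11585 genes in one table and 11678 in the other. The data are 12 RNA libraries of KYSE510, a human esophageal squamous cell carcinoma line, harvested 48 h after lipofection of small interfering RNA (siRNA), with 2 libraries in each of 6 groups. In the EZH2 series, siEZH2-1 and siEZH2-2, a pair of siRNAs against the histone methyltransferase EZH2, stand beside the non-targeting siNC. In the LAT1 series, siLAT1-2 and siLAT1-3, a pair against the amino acid transporter LAT1 (gene SLC7A5), stand beside a separate siNC. All groups are 1 cell line and all were transfected, siNC included, so that an untransfected level was not analysed here. Separate cultures are not mentioned for the libraries of any group. Each p-value therefore measures library-to-library spread, and this may be technical.

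p53 is a transcription factor that is stabilized by DNA damage and other stress and then raises genes that halt the cell cycle, repair DNA or start cell death. Its target MDM2 encodes the ubiquitin ligase that degrades p53, so the pathway limits itself. Many of these genes also carry p53-independent input, so the members are treated as a list of genes and not as a readout of p53.

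Values are FPKM, read or fragment counts scaled to gene length and library depth, and changes are log2 differences of FPKM + 1, which understate the change of low genes. A gene is called where limma's adjusted p (Benjamini-Hochberg over all genes tested, two-sided) was under 0.05. Library depth estimated from the steps between low values was 21300000 to 27400000 counted reads or fragments per library of the EZH2 series and 12900000 to 16700000 per library of the LAT1 series. The siRNA targets checked the labels: EZH2 stood at 40.6% and 36.4% of siNC with siEZH2-1 and siEZH2-2, and SLC7A5 at 20.3% and 26.0% with siLAT1-2 and siLAT1-3. EZH2 itself did not pass with siLAT1 (log2 -0.06, adjusted p = 0.397), while SLC7A5 stood at 24.9% and 78.6% of siNC with the EZH2 siRNAs. All 10 squamous epithelial markers averaged over 1 FPKM in both series, led by KRT5, and of 17 fibroblast, immune and endothelial markers 1 did so with the EZH2 siRNAs and their siNC, and 2 did so in the LAT1 series. The sum of these 17 was 1.13 to 1.38 FPKM in siNC, 1.41 to 2.00 with siEZH2-1 and 1.75 to 1.76 with siEZH2-2, and 3.34 to 3.51, 3.71 to 3.83 and 3.65 to 4.10 FPKM in siNC, siLAT1-2 and siLAT1-3. The sum of the squamous markers was 832 to 870 FPKM in siNC, 786 to 788 with siEZH2-1 and 775 to 825 with siEZH2-2, and 985 to 995, 873 to 883 and 945 to 956 FPKM in siNC, siLAT1-2 and siLAT1-3. The part of either sum in the results below was not tested. In bulk RNA, fewer cells expressing a gene and less of its RNA per cell cannot be told apart.

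In siNC of the EZH2 series the members ranged from 36.3 ± 1.21 FPKM (SD, n = 2) for CDKN1A down to 4.08 ± 0.629 FPKM for ZMAT3. Between them stood TNFRSF10B (27.7 FPKM), BAX (24.5), GADD45A (20.6), MDM2 (12.5), FAS (7.66), RRM2B (7.45) and XPC (4.11). The libraries of FAS and RRM2B overlapped, as did those of XPC and ZMAT3, so the order within these pairs is not resolved. In siNC of the LAT1 series the order was the same except that TNFRSF10B (27.6 FPKM) and BAX (27.0) stood above CDKN1A (24.7 ± 0.728 FPKM). The libraries of FAS and RRM2B overlapped there too, as did those of XPC and ZMAT3, so their order is again not resolved. The series are separate tables whose common scaling is not stated, so levels were not compared between them by a test.

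**Figure D1:**
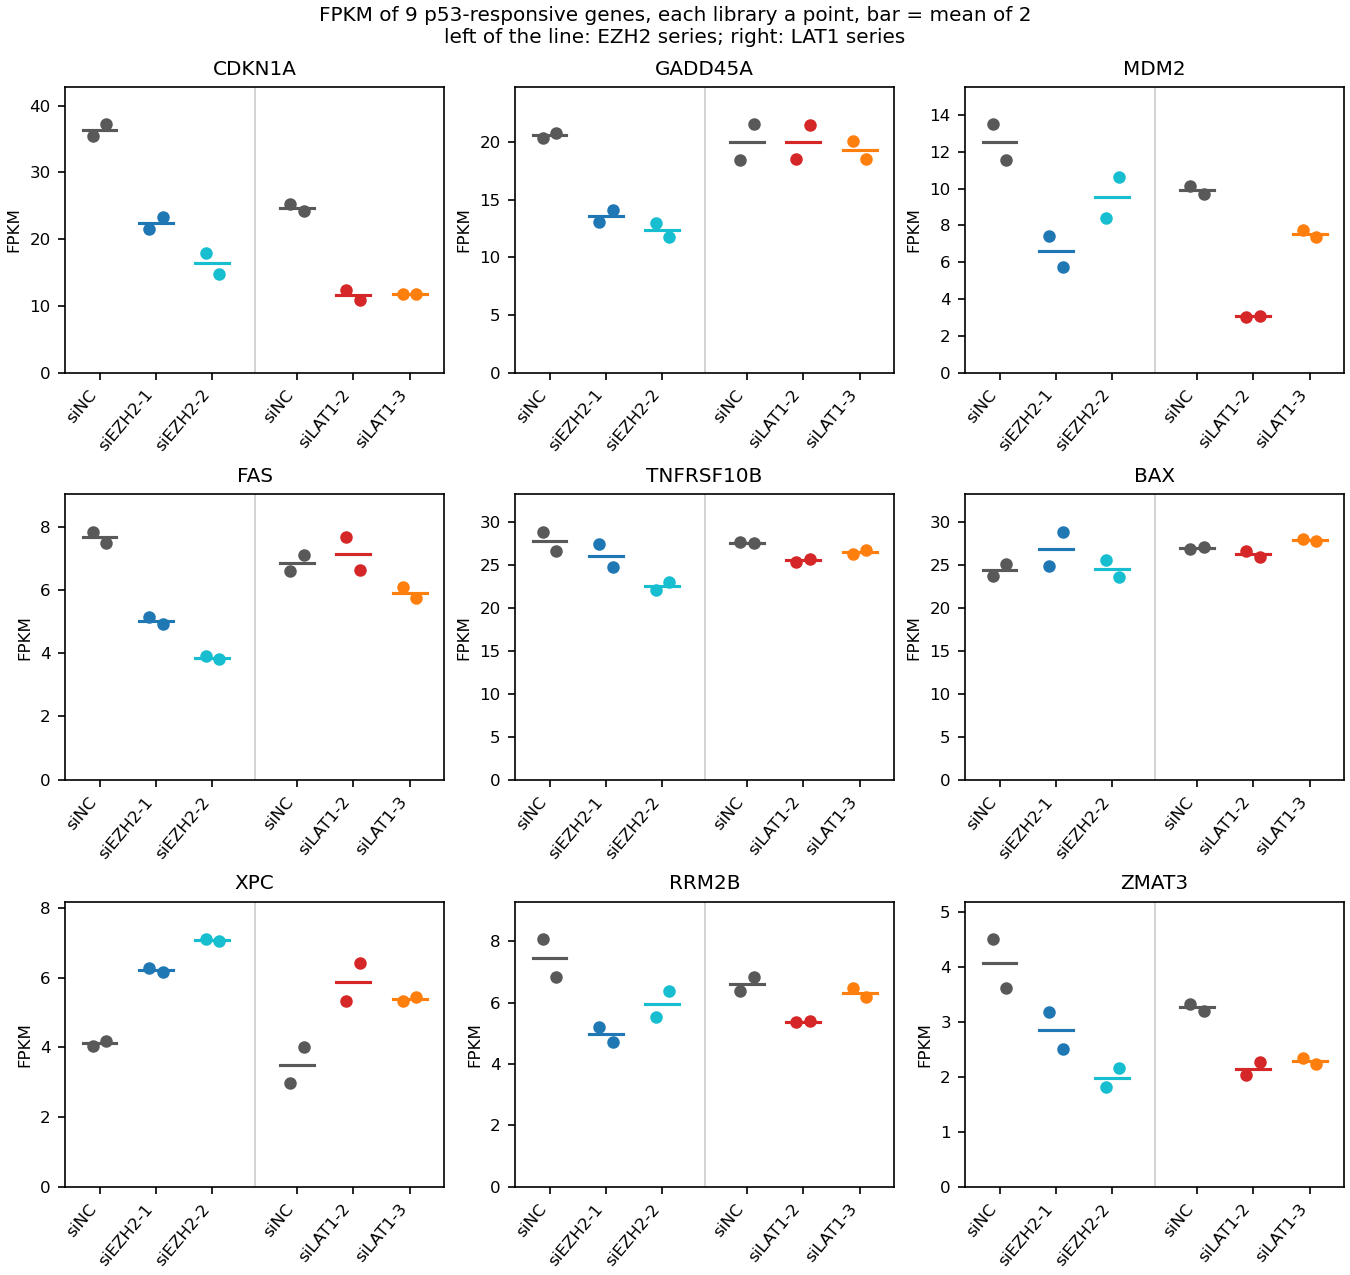
FPKM (vertical axis, from 0) of the 9 genes in each of the 12 libraries. Points are libraries, bars are means of 2, and the line in each panel separates the EZH2 series (left) from the LAT1 series (right). CDKN1A is lower and XPC higher than siNC in all 4 siRNA groups, while GADD45A and FAS are low in the siEZH2 groups, and BAX varies little.

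CDKN1A encodes p21, the inhibitor of cyclin-dependent kinases through which p53 arrests cells in G1. CDKN1A (ENSG00000124762) measured 35.45 and 37.16 FPKM in siNC, 21.45 and 23.32 with siEZH2-1, and 17.88 and 14.82 with siEZH2-2. The LAT1 libraries measured 25.18 and 24.15 FPKM in siNC, 12.36 and 10.83 with siLAT1-2, and 11.79 and 11.71 with siLAT1-3. Every siRNA library was below both siNC libraries of its series. The means were 61.7% and 45.0% of siNC with siEZH2-1 and siEZH2-2 and 47.0% and 47.6% with siLAT1-2 and siLAT1-3. CDKN1A thus fell with each siRNA: by limma the log2 change was -0.67 (95% interval -0.90 to -0.45, adjusted p = 0.0037) and -1.11 (-1.33 to -0.89, adjusted p = 0.000633) in the EZH2 series. In the LAT1 series it was -1.03 (-1.17 to -0.88, adjusted p = 6.08e-05) and -1.01 (-1.15 to -0.86, adjusted p = 6.83e-05). All 4 calls held under each of 12 alternatives.

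The stretch before the annotated start of CDKN1A is shown because this gene fell with every siRNA. It is known to work largely through GC boxes (GGGCGG) bound by SP1 family factors, and its p53 sites lie further upstream, outside this window. These are the 250 bases before the start site, chr6:36678464-36678713, plus strand, RefSeq on GRCh38.p14, with 4 GC boxes on either strand in capitals, of which the last pair overlaps; 42.6% of 35116 promoter windows of this length hold at least 1.
CDKN1A promoter: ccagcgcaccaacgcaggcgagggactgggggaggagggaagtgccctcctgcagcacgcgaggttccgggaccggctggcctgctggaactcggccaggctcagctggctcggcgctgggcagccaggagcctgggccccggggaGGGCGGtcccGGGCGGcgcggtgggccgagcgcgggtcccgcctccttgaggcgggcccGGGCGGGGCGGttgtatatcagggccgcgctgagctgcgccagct

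GADD45A encodes a small stress protein that hinders the G2 to M step and takes part in DNA repair. It measured 20.40 and 20.84 FPKM in siNC of the EZH2 series, 13.10 and 14.13 with siEZH2-1, and 12.98 and 11.74 with siEZH2-2. The groups did not overlap, and GADD45A (ENSG00000116717) stood at 66.0% and 59.9% of siNC. It fell with both EZH2 siRNAs (log2 -0.57 and -0.70, limma adjusted p = 0.00246 and 0.00116), calls that held under all 12 alternatives. The groups overlapped in the LAT1 series, with 18.48 and 21.56 FPKM in siNC, 18.55 and 21.55 with siLAT1-2, and 20.15 and 18.53 with siLAT1-3. The log2 differences there were 0.0023 (95% interval -0.22 to 0.22) and -0.04 (-0.26 to 0.17). Whether the siEZH2 and siLAT1 effects on GADD45A differ was not tested.

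MDM2 encodes the ligase that targets p53 for degradation and is itself raised by p53, from a second promoter inside its first intron. MDM2 (ENSG00000135679) measured 10.16 and 9.69 FPKM in siNC of the LAT1 series, 3.02 and 3.09 with siLAT1-2, and 7.75 and 7.34 with siLAT1-3. The 3 groups were fully separate, with siLAT1-2 at 30.8% and siLAT1-3 at 76.0% of siNC. MDM2 fell with siLAT1-2 (log2 -1.43, 95% interval -1.56 to -1.30, limma adjusted p = 1.43e-05) and with siLAT1-3 (log2 -0.35, -0.48 to -0.23, adjusted p = 0.00315). The siRNAs differed from each other by 1.08 on the log2 scale (adjusted p = 4.09e-05), and these 3 calls held under all 12 alternatives. In the EZH2 series MDM2 measured 13.48 and 11.55 FPKM in siNC, 7.42 and 5.74 with siEZH2-1, and 8.41 and 10.62 with siEZH2-2. Every siRNA library again lay below both siNC libraries, and the siEZH2-1 and siEZH2-2 libraries did not overlap. The fall was called with siEZH2-1 (52.6% of siNC, log2 -0.84, adjusted p = 0.00877), whereas siEZH2-2 stood at 76.0% (log2 -0.37, 95% interval -0.72 to -0.02, adjusted p = 0.116). With no filter on low values the siEZH2-1 call was lost (adjusted p = 0.0697). The mean of both was -0.60 (adjusted p = 0.015). Leaving out siNC replicate 1 took that call away (limma adjusted p = 0.101), with a range of 0.00938 to 0.106 over its 13 alternatives.

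The MDM2 window before annotated start 3 is shown because it holds the known p53-responsive element of the inner promoter. It spans chr12:68808767-68809016, plus strand, RefSeq on GRCh38.p14, and lies inside the gene, downstream of its first start sites. Capitals mark 2 adjoining p53 half-sites with 1 mismatch each to the consensus, beginning 94 bases before the start. This pattern was found in 0.339% of 35116 promoter windows and in 1 of the 6 members with a window; it was searched after the search for exact half-sites had found none here.
MDM2 inner promoter: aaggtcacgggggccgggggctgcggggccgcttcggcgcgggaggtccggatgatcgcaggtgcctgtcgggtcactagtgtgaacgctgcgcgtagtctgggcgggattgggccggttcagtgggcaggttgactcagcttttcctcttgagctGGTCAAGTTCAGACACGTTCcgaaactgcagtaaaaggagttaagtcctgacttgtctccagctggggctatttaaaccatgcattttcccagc

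FAS and TNFRSF10B encode death receptors, for FAS ligand and for TRAIL. FAS (ENSG00000026103) measured 7.84 and 7.48 FPKM in siNC of the EZH2 series, 5.14 and 4.92 with siEZH2-1, and 3.91 and 3.81 with siEZH2-2. These groups were separate, at 65.7% and 50.4% of siNC. FAS fell with both (log2 -0.52 and -0.83, limma adjusted p = 0.00269 and 0.000514), under all 12 alternatives as well. The LAT1 libraries measured 6.59 and 7.09 FPKM in siNC, 7.67 and 6.62 with siLAT1-2, and 6.10 and 5.73 with siLAT1-3. The siLAT1-2 and siNC libraries overlapped, and neither siRNA passed (log2 0.05, 95% interval -0.13 to 0.23, and -0.18, -0.36 to -0.0016; adjusted p = 0.631 and 0.115). FAS overlaps ACTA2 and FAS-AS1 on the genome, and the strand setting of the counting is not stated. ACTA2 was between 0.12 and 0.35 FPKM in the 12 libraries. The same limit holds for CDKN1A (overlapping DINOL), MDM2 (CPM), TNFRSF10B (RHOBTB2 and TNFRSF10B-AS1) and XPC (XPC-AS1). The part of reads from overlapping genes in the values of these members was not tested.

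Around the known p53 element in the first intron of FAS, a window before its annotated start 3 held the only exact p53 half-site among the 12 windows of the 6 members, 113 to 122 bases before that start. Such a site stands in 5.57% of all windows. The stretch shown is chr10:88991299-88991328, plus strand, RefSeq on GRCh38.p14, with the half-site in capitals.
FAS intron element: cggaactcctGGACAAGCCCtgacaagcca

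TNFRSF10B (ENSG00000120889) stayed close to siNC in both series. It measured 28.86 and 26.62 FPKM in siNC, 27.38 and 24.72 with siEZH2-1, and 22.06 and 23.02 with siEZH2-2. Both siEZH2-2 libraries lay below both siNC libraries, as did 1 of the 2 siEZH2-1 libraries, and siEZH2-2 was called (81.3% of siNC, log2 -0.29, limma adjusted p = 0.0293). The call was lost without siEZH2-2 replicate 1 or 2 (adjusted p = 0.124 and 0.0655) and without siNC replicate 1 or 2 (0.153 and 0.0507), the highest of its 12 alternatives being 0.153. Among the LAT1 libraries, siLAT1-2 at 25.32 and 25.71 FPKM and siLAT1-3 at 26.26 and 26.69 all lay below siNC at 27.64 and 27.49. The mean of both siLAT1 was -0.08 without a call (adjusted p = 0.0523). It was called with the filter at 5 FPKM (adjusted p = 0.0451) and with quantile normalization (0.0185). The siLAT1-2 difference of -0.11 (adjusted p = 0.0357) was lost without either siLAT1-2 library (adjusted p = 0.135 without replicate 1 and 0.0853 without replicate 2) and without siNC replicate 1 (0.139) or 2 (0.118), and siLAT1-3 did not pass (-0.06, adjusted p = 0.212).

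BAX encodes the pore-forming protein that releases cytochrome c from mitochondria. BAX (ENSG00000087088) ranged from 23.61 to 28.93 FPKM over the EZH2 series and from 25.97 to 28.05 FPKM over the LAT1 series. No siRNA gave a call, the log2 differences being 0.13 (95% interval -0.08 to 0.33) and 0.0088 (-0.20 to 0.21) with siEZH2-1 and siEZH2-2. With siLAT1-2 and siLAT1-3 they were -0.04 (-0.11 to 0.04) and 0.05 (-0.03 to 0.12).

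XPC encodes the protein that recognizes bulky DNA damage and opens nucleotide excision repair across the genome. XPC (ENSG00000154767) measured 4.04 and 4.18 FPKM in siNC, 6.27 and 6.17 with siEZH2-1, and 7.11 and 7.05 with siEZH2-2. The LAT1 libraries measured 2.99 and 4.01 FPKM in siNC, 5.34 and 6.42 with siLAT1-2, and 5.34 and 5.45 with siLAT1-3. Every siRNA library was above both siNC libraries of its series, although the siNC libraries of the LAT1 series lay far apart. XPC rose to 151% and 172% of siNC with the EZH2 siRNAs (log2 0.50 and 0.66, limma adjusted p = 0.00258 and 0.000953) and to 168% and 154% with siLAT1-2 and siLAT1-3 (log2 0.62 and 0.52, adjusted p = 0.00873 and 0.0184). The siLAT1-3 call was lost without siLAT1-3 replicate 1 (adjusted p = 0.0687), siLAT1-3 replicate 2 (0.0778) or siNC replicate 1 (0.0794), within a range of 0.00806 to 0.115 over its 11 alternatives. With no filter on low values, siLAT1-2 lost its call too (adjusted p = 0.071).

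The XPC promoter is shown as that of the member that rose. The stretch is chr3:14178602-14178816, minus strand, RefSeq on GRCh38.p14, trimmed where the neighbouring gene LSM3 begins, with its single GC box in capitals. It holds no exact p53 half-site, which says only that these letters are not in this window.
XPC promoter: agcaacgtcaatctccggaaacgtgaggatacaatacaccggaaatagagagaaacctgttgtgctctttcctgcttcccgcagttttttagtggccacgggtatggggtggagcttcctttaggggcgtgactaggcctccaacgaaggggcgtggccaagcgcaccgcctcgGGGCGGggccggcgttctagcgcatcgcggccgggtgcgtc

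RRM2B encodes the p53-inducible small subunit of ribonucleotide reductase, which supplies deoxynucleotides outside S phase. RRM2B (ENSG00000048392) measured 8.08 and 6.82 FPKM in siNC, 5.22 and 4.73 with siEZH2-1, and 5.53 and 6.39 with siEZH2-2. All 4 siRNA libraries were below both siNC libraries. It fell with siEZH2-1 (66.8% of siNC, log2 -0.50, limma adjusted p = 0.0162), while siEZH2-2 stood at 80.0% (-0.28, adjusted p = 0.0969). The siEZH2-1 call was lost without siEZH2-1 replicate 2 (adjusted p = 0.0953) or siNC replicate 1 (0.0865), the highest of its 12 alternatives being 0.0953. The mean of both siEZH2 was -0.39 (adjusted p = 0.0207), lost without siEZH2-1 replicate 2 (adjusted p = 0.0569) or siNC replicate 1 (0.149). The LAT1 libraries measured 6.37 and 6.82 FPKM in siNC, 5.37 and 5.40 with siLAT1-2, and 6.47 and 6.19 with siLAT1-3. Only siLAT1-2 was separate from siNC (81.7%, log2 -0.25, adjusted p = 0.0131), a call lost without siLAT1-2 replicate 1 (0.0554), siLAT1-2 replicate 2 (0.0507) or siNC replicate 2 (0.0843).

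ZMAT3 encodes a zinc finger protein that binds RNA and acts in p53-driven tumour suppression. ZMAT3 (ENSG00000172667) measured 4.52 and 3.63 FPKM in siNC, 3.19 and 2.52 with siEZH2-1, and 1.82 and 2.16 with siEZH2-2. The LAT1 libraries measured 3.34 and 3.21 FPKM in siNC, 2.04 and 2.27 with siLAT1-2, and 2.34 and 2.23 with siLAT1-3. No siRNA library reached a siNC library of its series. ZMAT3 fell with siEZH2-2 (48.8% of siNC, log2 -0.76, limma adjusted p = 0.00805), siLAT1-2 (65.8%, -0.44, adjusted p = 0.0051) and siLAT1-3 (69.8%, -0.38, adjusted p = 0.00955), and siEZH2-1 stood at 70.1% without a call (-0.40, adjusted p = 0.0645). The siEZH2-2 call was lost with no filter on low values (adjusted p = 0.0621), and the siLAT1-3 call without siNC replicate 1 (adjusted p = 0.0646, the highest of its 11 alternatives). The mean of both siEZH2 of -0.58 (adjusted p = 0.0115) was lost without siNC replicate 1 as well (0.0877, also the highest of 12).

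**Figure D2:**
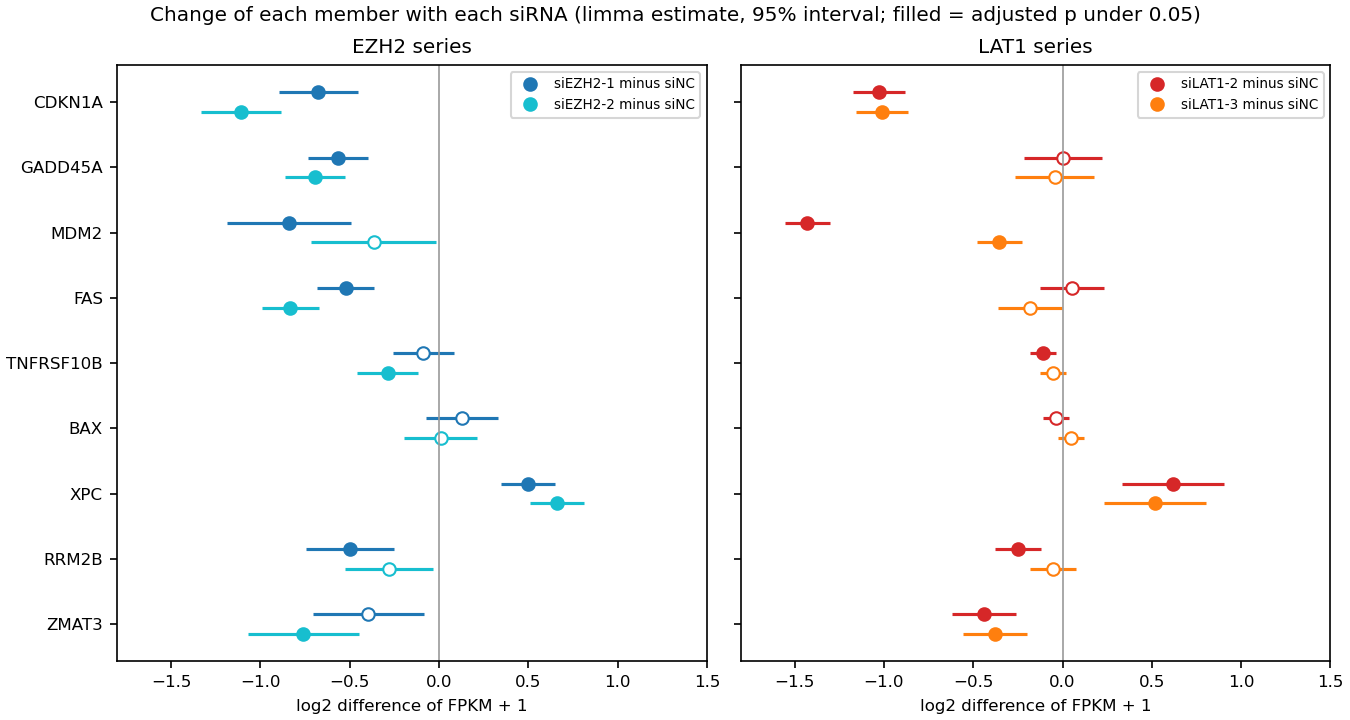
log2 difference of FPKM + 1 from siNC (horizontal axis) for each gene and siRNA, with 95% intervals from limma; filled points are called at adjusted p under 0.05. CDKN1A at -1.11 to -0.67 and XPC at 0.50 to 0.66 are filled for all 4 siRNAs, and MDM2 shows the widest gap between siRNAs, -1.43 against -0.35 in the LAT1 series.

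Counted over the 9 genes, more were called lower than higher against siNC in every comparison. The members were chosen with earlier results of these data known, so their counts and medians beside those of all genes are a description. With the mean of both EZH2 siRNAs, 6 fell (CDKN1A, GADD45A, MDM2, FAS, RRM2B and ZMAT3), 1 rose (XPC) and 2 did not pass, where limma called 13.0% of all genes tested lower and 17.0% higher. The median log2 difference was -0.58 over the members and 0.03 over all genes tested. With siEZH2-1 alone 5 fell and 1 rose (11.4% and 15.9% of all genes), and with siEZH2-2 alone 5 fell and 1 rose (10.9% and 13.9%). With the mean of both LAT1 siRNAs, 4 fell (CDKN1A, MDM2, RRM2B and ZMAT3) and 1 rose (XPC), where 15.3% of all genes were called lower and 19.3% higher. The median was -0.08 over the members and 0.01 over all genes. With siLAT1-2, 5 fell and 1 rose (13.9% and 18.6% of all genes), and with siLAT1-3, 3 fell and 1 rose (13.6% and 17.9%). The RRM2B call of the LAT1 mean (log2 -0.15, adjusted p = 0.0463) held in 3 of 13 alternatives and in none that left out a library. Without siNC replicate 1, the EZH2 mean and siLAT1-3 had fewer calls, among the members and over all genes tested alike. CDKN1A was called lower and XPC higher with each of the 4 siRNAs. MDM2 and ZMAT3 also lay below siNC in every siRNA library, each with a call for 3 of the 4 siRNAs. How many of all genes tested do the same across the siRNAs was not counted, so this does not set these members apart from other genes. The siRNAs of a series are read against the same pair of siNC libraries, so their changes are not independent.

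Set against each other, the siRNAs of a pair differed at 2 members in each series. CDKN1A was lower with siEZH2-2 than with siEZH2-1 by 0.44 on the log2 scale (difference -0.44, limma adjusted p = 0.0256), and FAS likewise (difference -0.31, adjusted p = 0.0251); over all genes tested 8.86% were lower and 7.4% higher with siEZH2-2. The CDKN1A difference lost its call when replicate 1 (adjusted p = 0.0615) or 2 (0.136) of siEZH2-1 or replicate 2 of siEZH2-2 (0.0854) was left out. That of FAS was lost without any 1 of the 4 siEZH2 libraries: siEZH2-1 replicate 1 (0.126) or 2 (0.105), siEZH2-2 replicate 1 (0.0721) or 2 (0.112). MDM2 and RRM2B were higher with siLAT1-3 than with siLAT1-2 (1.08, and 0.20 with adjusted p = 0.037), where 12.4% of all genes were higher and 13.1% lower. The RRM2B difference was lost without siLAT1-2 replicate 1 (adjusted p = 0.122), siLAT1-3 replicate 1 (0.145) or 2 (0.0794), siNC replicate 1 (0.0529) or 2 (0.0535), and siLAT1-2 replicate 2 (0.109). For CDKN1A in the LAT1 series the difference was 0.02, with a 95% interval of -0.12 to 0.17.

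MDM4, the partner of MDM2 that masks the activation domain of p53, was low throughout, at 1.13 to 1.86 FPKM over the EZH2 series and at 1.84 to 2.37 FPKM over that of LAT1. It was called with siEZH2-1 (66.9% of siNC, log2 -0.35, limma adjusted p = 0.0314), but not without siEZH2-1 replicate 1 (adjusted p = 0.0688) or 2 (0.163), or siNC replicate 1 (0.169) or 2 (0.0847), and with no other siRNA. TP63, the p53 relative that sustains squamous epithelium, averaged 34.3 FPKM in siNC, 25.7 with siEZH2-1 and 29.9 with siEZH2-2. Alone, TP63 was called with siEZH2-1 (-0.40, adjusted p = 0.0201) and not with siEZH2-2 (-0.19, adjusted p = 0.167). TP63 lost the siEZH2-1 call with no filter on low values (limma adjusted p = 0.103), and without siEZH2-1 replicate 2 or siNC replicate 1. Its mean change of -0.30 (adjusted p = 0.0304) lost its call when siEZH2-1 replicate 2 (0.0622), siEZH2-2 replicate 1 (0.0675), or replicate 1 (0.189) or 2 (0.0589) of siNC was left out. TP63 in the LAT1 series stood at 35.9, 35.7 and 37.7 FPKM in siNC, siLAT1-2 and siLAT1-3, with no call. TP73, the other relative, averaged 1.64 FPKM in siNC, 1.20 with siEZH2-1 and 2.35 with siEZH2-2, and the siRNAs differed by 0.61 (adjusted p = 0.01; 0.0647 without siEZH2-1 replicate 2). Against siNC, siEZH2-2 was called higher (0.35, adjusted p = 0.0453), which no leave-one-out fit kept (adjusted p = 0.0663 to 0.228). TP73 in the LAT1 series was 4.47, 3.65 and 4.49 FPKM, lower with siLAT1-2 (-0.23, adjusted p = 0.023), which leaving out any 1 siLAT1-2 or siNC library took away (siLAT1-2 replicate 1, 0.0506, and 2, 0.103; siNC replicate 1, 0.0662, and 2, 0.122).

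**Figure D3:**
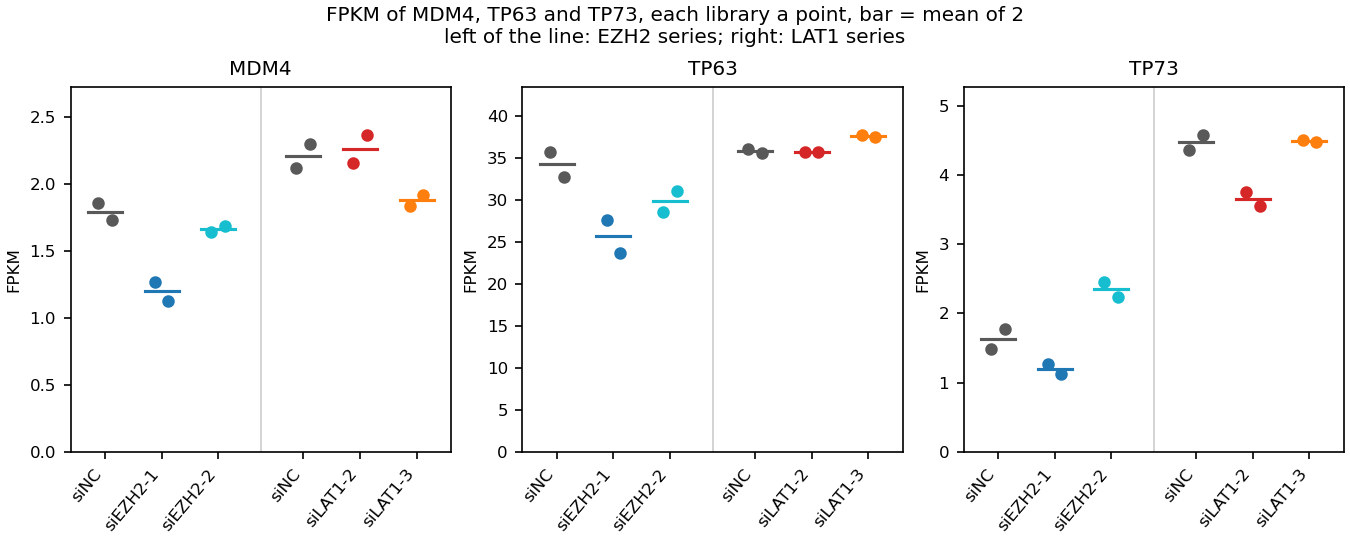
FPKM (vertical axis, from 0) of MDM4, TP63 and TP73 in each library; points are libraries, bars are means of 2, and the line separates the series. TP73 averages 1.20 FPKM with siEZH2-1 and 2.35 with siEZH2-2, on either side of siNC at 1.64.

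The wider p53 pathway was read from 6 gene lists with the mean of both siRNAs of each series, against the shares of all genes given above. With any library left out, fewer of all genes tested were called higher and fewer lower in both series. Losses of calls in the lists below are therefore not particular to them. Of 60 further p53 targets, 51 were tested in the EZH2 series; 4 rose, 13 fell and 34 did not pass, with a median log2 difference of -0.03 against 0.03 over all genes. With siLAT1, 7 of 54 rose and 18 fell (median -0.08 against 0.01). PERP, a desmosomal protein and p53 target, led the rises in both series (29.2 FPKM in siNC, 81.6 with siEZH2-1 and 35.6 with siEZH2-2; 60.9 in siNC, 114 with siLAT1-2 and 110 with siLAT1-3). ORAI3, a calcium channel subunit, rose with siEZH2 (log2 0.41, limma adjusted p = 0.011) and DRAM1, an autophagy regulator, with siLAT1 (0.41, adjusted p = 0.000248). With siEZH2-2 alone ORAI3 did not pass (0.25, adjusted p = 0.0866). The largest falls were ASCC3, a helicase (-0.60, adjusted p = 0.015), and the ubiquitin ligase RNF19B (-0.45, adjusted p = 0.00181) with siEZH2. With siLAT1 they were ACER2, an alkaline ceramidase (-0.83, adjusted p = 0.000906), and TNFRSF10D, a decoy receptor for TRAIL (-0.60, adjusted p = 0.000481). ACER2 was low, at 2.765 FPKM in siNC, 1.27 with siLAT1-2 and 0.99 with siLAT1-3. The 13 lower in the EZH2 series became 8 without siEZH2-1 replicate 2, 7 without siEZH2-2 replicate 1, 6 without siNC replicate 1 and 3 without siNC replicate 2. Without siNC replicate 1 the 4 higher became 2, and with siLAT1 the 18 lower became 11. ASCC3 was called with siEZH2-1 alone and not with siEZH2-2 alone (-0.15, adjusted p = 0.489), and ORAI3 and ASCC3 lost their calls without siNC replicate 1 (adjusted p = 0.0914 and 0.101).

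Of 24 regulators of p53, 2 rose and 3 fell with siEZH2, and 3 rose and 2 fell with siLAT1. The median log2 difference was -0.06 with siEZH2, against 0.03 over all genes, and 0.0013 with siLAT1, against 0.01. SIRT1, a deacetylase that acts on p53, was lower in both (log2 -0.65, limma adjusted p = 0.00173, and -0.52, adjusted p = 0.000481), while alone siLAT1-3 did not pass (-0.14, adjusted p = 0.118). RPL11, a ribosomal protein that binds MDM2 and has many pseudogenes that can share its reads, rose with siEZH2 (0.32, adjusted p = 0.0169; 0.127 without siNC replicate 1). With siLAT1 the ligase gene RCHY1 (0.53, adjusted p = 0.00584; 0.0565 without siNC replicate 2) and the damage kinase ATM (0.33, adjusted p = 0.00576) rose, and the acetyltransferase CREBBP fell (-0.15, adjusted p = 0.0357), a call absent with siLAT1-2 alone (0.0037, adjusted p = 0.962) and lost in 5 of 6 leave-one-out fits, all but that without siLAT1-3 replicate 1. Without siNC replicate 1 of the EZH2 series, 1 rose and 1 fell.

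Of 24 mitotic genes known to be lowered through p21 and its partners, 3 rose and 7 fell with siEZH2, and 5 rose and 11 fell with siLAT1. BIRC5, which encodes survivin, rose in both (0.68, limma adjusted p = 0.00235, and 0.48, adjusted p = 0.00583; 0.0544 without siNC replicate 2 of the LAT1 series). MYBL2 (0.46, adjusted p = 0.00193) rose with siEZH2 and CENPF (0.22, adjusted p = 0.00162) with siLAT1. The largest falls were the kinesin genes CENPE (-0.57, adjusted p = 0.0109; 0.0803 without siNC replicate 1) and KIF23 (-0.55, adjusted p = 0.000655) with siEZH2, and topoisomerase TOP2A (-0.45, adjusted p = 5.3e-05) and the kinase CDK1 (-0.37, adjusted p = 0.00128) with siLAT1. CDK1 stood at -0.13 with siLAT1-2 (adjusted p = 0.105) and -0.60 with siLAT1-3. Without siNC replicate 2, 3 genes rose with siLAT1.

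Among 22 tested genes of the death receptor and BCL2 families, 5 rose and 3 fell with siEZH2, and 5 rose and 5 fell with siLAT1. CYCS, cytochrome c, rose in both (log2 0.40, limma adjusted p = 0.00498, and 0.41, adjusted p = 0.000558). MCL1, an inhibitor of apoptosis, fell with siEZH2 (-0.48, adjusted p = 0.00277). BMF (-0.49, adjusted p = 0.0194), a BH3-only protein, and TNFSF10, which encodes TRAIL (-0.32, adjusted p = 0.0284), fell with siLAT1. BMF averaged 1.57 FPKM in siNC and 0.835 FPKM with siLAT1-2 and with siLAT1-3. Being under the filter of 1 FPKM with both siRNAs, BMF was tested only because siNC was higher, so its call is a description. BMF lost its call without siNC replicate 1. With siLAT1-2 alone TNFSF10 did not pass (-0.29, adjusted p = 0.0636). TNFSF10 lost its call without siLAT1-2 replicate 2 (0.0563), siLAT1-3 replicate 1 (0.0583), siNC replicate 1 (0.168) or siNC replicate 2 (0.0984). Without siNC replicate 1 of the EZH2 series the 5 higher became 3. With siLAT1 they became 3 without siLAT1-2 replicate 2 or siNC replicate 1, and 2 without siLAT1-3 replicate 1 or siNC replicate 2, while the 5 lower became 2 without either siNC library.

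Nucleotide excision repair and deoxynucleotide supply, the processes of XPC and RRM2B, had 9 of 25 genes higher and 2 lower with siEZH2, and 10 of 24 higher and 1 lower with siLAT1. The median was 0.13 against 0.03 over all genes with siEZH2, and 0.11 against 0.01 with siLAT1. GTF2H3, a subunit of the TFIIH complex, rose in both (0.54, limma adjusted p = 0.001, and 0.72, adjusted p = 0.000115). XPA (-0.22, adjusted p = 0.0441) and the dNTP hydrolase SAMHD1 (-0.18, adjusted p = 0.0467) were called lower with siEZH2, and DCK, deoxycytidine kinase, with siLAT1 (-0.34, adjusted p = 0.000785). With siEZH2-2 alone XPA did not pass (-0.08, adjusted p = 0.506). SAMHD1 passed with neither siEZH2-1 nor siEZH2-2 alone (adjusted p = 0.113 and 0.0543). Without 1 library, XPA kept its call only in the fit that left out siEZH2-2 replicate 1, and SAMHD1 only without siEZH2-2 replicate 2. Without siNC replicate 2, the 10 higher in the LAT1 series became 4. Without siLAT1-3 replicate 1 or siNC replicate 1 they became 6 and 5. Of the relatives of members, 8 were tested with siEZH2 and 5 with siLAT1, 2 fell in each and none rose. CDKN1B, which encodes the p21 relative p27, fell in both (-0.80, adjusted p = 0.000511, and -0.28, adjusted p = 0.00196), as did GADD45B (-0.30, adjusted p = 0.0137, and -0.34, adjusted p = 0.0217). Alone, siEZH2-1 (-0.20, adjusted p = 0.0824) and siLAT1-3 (-0.29, adjusted p = 0.0632) did not pass for GADD45B. GADD45B lost its call without siNC replicate 1 or 2 with siEZH2 (adjusted p = 0.0542 and 0.0815), and with siLAT1 without siNC replicate 1 or 2 (0.0739 and 0.146) or siLAT1-3 replicate 2 (0.0534).

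**Figure D4:**
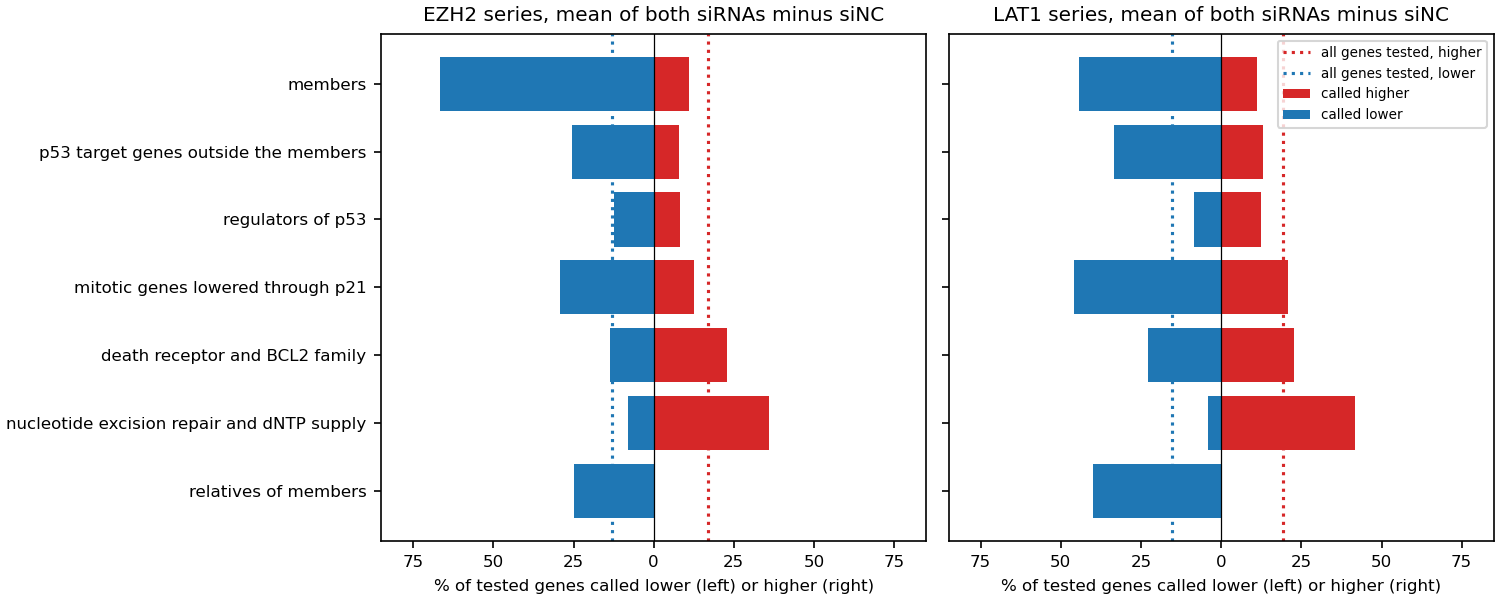
Percent of tested genes called lower (left of 0) or higher (right of 0) in each list with the mean of both siRNAs, by series; dotted lines are the shares over all genes tested, 13.0% and 17.0% for siEZH2 and 15.3% and 19.3% for siLAT1. The bar of the 9 members stands for 6 lower and 1 higher genes with siEZH2, and 4 lower and 1 higher with siLAT1.

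The patterns most like those of CDKN1A and MDM2 were sought among 8196 other genes over the 12 libraries, as Pearson's r of log2(FPKM + 1) less the own siNC mean. This is a description: libraries of a group share their siRNA, and all share the siNC of their series. For CDKN1A they were IL18, a cytokine (r = 0.974), ANXA5, a phospholipid-binding protein (0.972), and LDHA, lactate dehydrogenase (0.964). Their changes were smaller: IL18 went from 37.3 FPKM to 32.5 and 27.9 with siEZH2-1 and siEZH2-2 and from 25.7 to 20.6 and 20.01 with siLAT1-2 and siLAT1-3. For MDM2 they were FAR1, a fatty acyl reductase (r = 0.99), YTHDC1, a nuclear reader of methylated RNA (0.99), and R3HDM1 (0.988). FAR1 went from 17.9 FPKM to 11.8 and 15.8 with siEZH2-1 and siEZH2-2, and from 18.1 to 8.56 and 14.8 with siLAT1-2 and siLAT1-3, so it too was lowest with siLAT1-2.

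**Figure D5:**
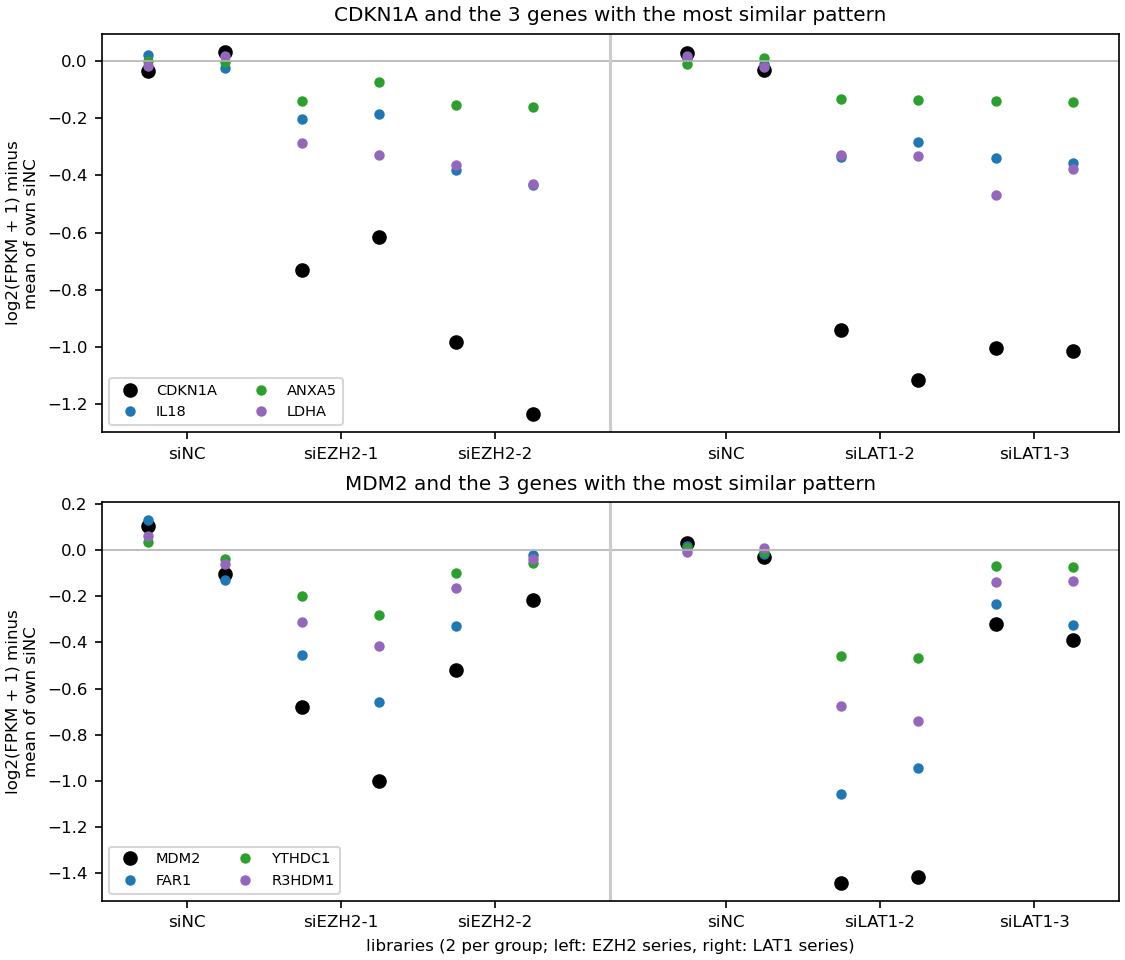
log2(FPKM + 1) less the mean of the own siNC (vertical axis) in each of the 12 libraries for CDKN1A (top) and MDM2 (bottom) and the 3 genes with the highest r. CDKN1A and its companions are below 0 in all siRNA libraries; MDM2, FAR1, YTHDC1 and R3HDM1 are lowest in the siLAT1-2 libraries.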

How the data were processed

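Gene expression was measured in 12 RNA libraries, and 2 chromatin libraries of the series were not analysed here. The authors deposited 1 table per series with 63677 genes and 1 column per library. The deposited values were taken as FPKM, a unit inferred from the values and not stated in the files; the counter, gene lengths and strand setting are not given in the sources used here. Per the submitters' processing notes, the series used SEACR, Picard, STAR, Bowtie, Bowtie2 and Trim Galore, and the builds hg38 and hg19, with no roles given. Columns were matched to samples by their labels; the descriptions number both siNC libraries of the LAT1 series, whose titles give the same number.

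Each table was analysed alone. Genes averaging at least 1 FPKM over 6 libraries were kept, log2(FPKM + 1) was taken, and limma 3.58.1 in R 4.3.3 was fitted with 1 mean per group and a mean-variance trend, with Benjamini-Hochberg adjustment over all genes kept and a two-sided threshold of 0.05. The script was checked on simulated data. An exact permutation test of 1 value cannot go below 0.0667 for 4 libraries against 2, or 0.333 for 2 against 2. Depth was estimated from the steps between low values, which came out whole within 0.12 for 78.5% to 85.9% of values, so no count test was run.

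Members and gene lists were chosen with earlier results of these data known. Named are the 9 members, MDM4, TP63, TP73, EZH2 and SLC7A5, the 2 highest and 2 lowest called genes per list and series by the mean of both siRNAs, and the 3 genes most like CDKN1A and MDM2; some genes that the rule selects are not reported here. Alternatives were no filter or one at 5 FPKM, a pseudocount of 0.1, quantile normalization, columns rescaled to a common sum, a replicate block, both siRNAs as 1 group, and each library left out; the lone library left in a group is then assumed to vary like the others. Promoter windows are based on RefSeq (GRCh38.p14), and the set of windows used here held 6 of the 9 members. The p53 half-site was searched as its consensus, and the GC box as GGGCGG, both on both strands.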

Additional observations from a re-analysis of the deposited data

Results flagged for a closer look

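The siRNAs of a pair differed from each other at several of the genes described, by limma with adjustment over all genes tested. Over all genes, 7.4% were called higher and 8.86% lower with siEZH2-2 than with siEZH2-1. With siLAT1-3 against siLAT1-2 it was 12.4% and 13.1%, so these differences do not set the members apart from other genes. The calls for CDKN1A, FAS, RRM2B and, in the EZH2 series, TP73 were lost in some fits with a library left out, as given above. In the EZH2 series (siEZH2-2 minus siEZH2-1) the log2 difference was -0.44 for CDKN1A (adjusted p = 0.0256), -0.31 for FAS (adjusted p = 0.0251), 0.61 for TP73 (adjusted p = 0.01) and 1.65 for the transporter gene SLC7A5 (adjusted p = 8.66e-05), which stood at 24.9% of siNC with siEZH2-1 and 78.6% with siEZH2-2.

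In the LAT1 series (siLAT1-3 minus siLAT1-2) the log2 difference was 1.08 for MDM2 (adjusted p = 4.09e-05), 0.20 for RRM2B (adjusted p = 0.037), 0.24 for TP73 (adjusted p = 0.0263) and 0.36 for the target SLC7A5 (adjusted p = 0.000803). The TP73 difference was lost without any 1 of the 4 siLAT1 libraries: siLAT1-2 replicate 1 (adjusted p = 0.0595) or 2 (0.112), siLAT1-3 replicate 1 (0.0945) or 2 (0.0907). All libraries of each siRNA lay on the same side of the other for these 8 differences.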

How the results depend on the processing

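Of 870 values of the 9 members under an alternative, 777 kept their direction and their side of the threshold, 68 lost a call, 5 gained one and 20 changed sign, none of the last with a call. The 870 include results without a call in the main fit, which cannot lose one, so the share of calls lost is larger than 68 of 870. Calls of members against siNC with the EZH2 mean (7) became 4 with no filter and with both siRNAs as 1 group, and 4 to 7 with 1 library left out. The LAT1 mean (5) became 3 with no filter and with both siRNAs as 1 group, and 4 with any library left out. With siLAT1-3 the 4 calls became 2 with the filter at 5 FPKM, which removes XPC and ZMAT3, and 2 to 4 with 1 library left out. Between the siRNAs, the 2 calls of the EZH2 series became 0 with no filter and 0 to 2 with 1 library left out, and the 2 of the LAT1 series became 1 with no filter and with rescaled columns and 1 to 2 with 1 library left out. The 6 calls with siEZH2-1 and the 6 with siEZH2-2 became 4 with no filter, and the 6 with siLAT1-2 became 4 with the filter at 5 FPKM. For each of these siRNAs, some fits with a library left out also had fewer calls. With no filter more genes are adjusted for; the other causes were not tested. Over all genes, the EZH2 mean called 1081 higher and 739 lower with no filter, against 1972 and 1509, and 801 and 556 without siNC replicate 1. With both siRNAs as 1 group it called 827 and 326, and the LAT1 mean 989 and 320, against 2249 and 1783. The further p53 targets called lower then became 1 (of 13) and 3 (of 18), the mitotic genes 4 (of 7) and 4 (of 11), and the repair genes called higher 5 (of 9) and 5 (of 10). The death receptor and BCL2 genes called higher became 1 (of 5) and 2 (of 5). In that grouping the named genes that lost their calls with siEZH2 were MDM2 (adjusted p = 0.106), RRM2B (0.0855), ZMAT3 (0.0726), TP63 (0.128), SLC7A5 (0.211), PERP (0.201), ORAI3 (0.0949), ASCC3 (0.267), SIRT1 (0.107), KIF23 (0.13), CYCS (0.086), MCL1 (0.12), XPA (0.273), SAMHD1 (0.128) and GADD45B (0.0968). With siLAT1 they were MDM2 (0.18), RRM2B (0.311), DRAM1 (0.0758), SIRT1 (0.261), CREBBP (0.449), TOP2A (0.135), CDK1 (0.222), TNFSF10 (0.076) and GADD45B (0.073).

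Equal replicate numbers did not line up alike across the groups of the EZH2 series. Deviations of same-numbered libraries correlated at 0.355 between siEZH2-1 and siNC. They correlated at -0.353 between siEZH2-1 and siEZH2-2, and at -0.339 between siEZH2-2 and siNC. Libraries may thus share deviations with the siEZH2-2 numbers reversed, which was not tested. In the LAT1 series the correlations were 0.0177 to 0.0826. With the number as a replicate block, calls between the siRNAs became 0 (EZH2 series) and 1 (LAT1 series). For siEZH2-2 this block runs against the signs above.

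Values near 0 changed sign. With quantile normalization TP73 was -0.0208 (EZH2 mean) and -0.0183 (siLAT1-3), BAX -0.0215 and TP63 -0.00364 (LAT1 mean), and GADD45A -0.0318 (siLAT1-2). With rescaled columns BAX was -0.0283 (siEZH2-2), GADD45A 0.00296 (LAT1 mean), TP63 0.0252 and EZH2 0.00723 (siLAT1-2). With 1 library left out, TP73 ranged from -0.035 to 0.124 (EZH2 mean) and -0.0248 to 0.0333 (siLAT1-3), and BAX from -0.0484 to 0.066 (siEZH2-2) and -0.0032 to 0.014 (LAT1 mean). GADD45A ranged from -0.127 to 0.0847 (LAT1 mean), -0.104 to 0.108 (siLAT1-2), -0.151 to 0.0612 (siLAT1-3) and -0.15 to 0.056 (siLAT1-3 minus siLAT1-2). FAS ranged from -0.0403 to 0.146, EZH2 from -0.0871 to 0.0397, MDM4 from -0.0221 to 0.0707 and TP63 from -0.0152 to 0.00157 (all siLAT1-2), and CDKN1A from -0.0674 to 0.108 and XPC from -0.215 to 0.0124 (siLAT1-3 minus siLAT1-2). With 2 libraries a group, small differences are not resolved.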

Other observations

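Levels in the siNC groups of the 2 series were not alike for some of these genes. Both are KYSE510 labelled siNC, and whether their control siRNA and culture were the same is not stated. TP73 averaged 1.64 FPKM in siNC of the EZH2 series and 4.47 in that of the LAT1 series, and SLC7A5 755 and 410 FPKM. MDM2 averaged 12.5 and 9.93 FPKM and TP63 34.3 and 35.9 FPKM. A common scaling of the tables is not stated, so these are values side by side with no test.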
